A study of Mus musculus with 6 samples.

Results

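Respiratory chain genes of 2 genomes were followed in 6 RNA sequencing libraries of mouse F9 cells, a teratocarcinoma line that differentiates towards endoderm in retinoic acid (RA). Members were all protein-coding rows of the mitochondrial chromosome, and all protein-coding rows whose symbol begins with Nduf, Uqcr, Cox4 to Cox8 or Atp5, or is Sdha, Sdhb, Sdhc or Sdhd. This gave 103 of 25904 genes, 12 mitochondrial and 91 nuclear. The symbol rule also took in the complex I assembly factors Ndufaf1 to Ndufaf4, Atp5s and Atp5sl, and 2 rows that match by name alone, Cox4nb and Atp5l-ps1. It left out subunit genes with other names, such as Cyc1 of complex III and Usmg5 of complex V. The mitochondrial gene mt-Nd4l was not analysed here. There were 3 F9 lines, named for the hairpin each expressed: shGFP served as control, shCtbp2 targets the corepressor Ctbp2, and shRxr is named for retinoid X receptors, the DNA-binding partners of RA receptors. All lines grew in charcoal-stripped serum, and each was harvested untreated (UT) or after 48 hours in 1 µM all-trans RA, with 1 library per line and treatment. The labels do not say whether a line is a clone or a pool, and no library has a replicate.

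The respiratory chain sits in the inner mitochondrial membrane. Complexes I and II pass electrons to ubiquinone, complex III passes them to cytochrome c, complex IV reduces oxygen, and complex V makes ATP from the proton gradient. Complex II is encoded in the nucleus alone, whereas the other complexes combine core subunits from mitochondrial DNA, which is transcribed as long polycistronic RNAs by its own polymerase, with many subunits made from nuclear genes. Several complex IV subunits come in alternative forms from paired nuclear genes, one broadly expressed and one typical of muscle, lung, testis or low oxygen. Nuclear respiratory factor 1 (NRF1) and the ETS family factor GABP are known activators of many of the nuclear genes.

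Promoter sequences of 3 complex IV genes are shown because the results turn on the pair Cox7a1 and Cox7a2, and because Cox6a1 carries matches to the sites of both activators. Each is the 250 bases before the start of the gene on its coding strand, 5′ to 3′, from RefSeq on GRCm38.p6. Capitals mark matches to the NRF1 motif (GCGCA, 1 base of any kind, then GCGC) or to the ETS motif CCGGAAG on either strand. Cox7a1 lies at chr7:30183921-30184170 on the plus strand, Cox7a2 at chr9:79759854-79760103 on the minus strand and Cox6a1 at chr5:115348959-115349208 on the minus strand.
Cox7a1: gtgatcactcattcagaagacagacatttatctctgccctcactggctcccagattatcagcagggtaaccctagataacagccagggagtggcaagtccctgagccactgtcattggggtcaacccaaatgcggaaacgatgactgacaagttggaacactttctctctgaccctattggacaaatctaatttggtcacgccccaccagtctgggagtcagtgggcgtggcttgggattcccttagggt
Cox7a2: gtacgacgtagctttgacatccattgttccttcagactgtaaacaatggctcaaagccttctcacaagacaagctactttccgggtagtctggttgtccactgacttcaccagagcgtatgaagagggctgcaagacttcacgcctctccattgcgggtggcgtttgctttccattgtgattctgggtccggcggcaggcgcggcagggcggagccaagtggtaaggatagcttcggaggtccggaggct
Cox6a1: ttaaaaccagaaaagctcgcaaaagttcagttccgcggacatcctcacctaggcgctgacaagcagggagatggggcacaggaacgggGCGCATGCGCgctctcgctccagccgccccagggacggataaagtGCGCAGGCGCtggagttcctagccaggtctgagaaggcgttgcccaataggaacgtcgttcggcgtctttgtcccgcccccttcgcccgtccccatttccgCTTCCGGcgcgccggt
In Cox6a1 the NRF1 motif matched at -162 to -153 and at -117 to -108, and the ETS motif at -16 to -10, counted from the gene start. Neither motif matched in Cox7a1 or Cox7a2. Of the 91 nuclear members 74 were found in the promoter table, and 72 of these were among the genes tested below. The NRF1 motif stood in 14 of the 72 (19.4%), against 9.67% of 9469 promoters of tested genes. The ETS motif stood in 13 (18.1%), against 16%, and the RA receptor half-site AGGTCA in 10 (13.9%), against 12.6%. Median GC content of these windows was 57% for the members and 60.8% for all. A match is a description of these letters and not a measured site.

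Levels are normalised reads, that is, reads per 10000000 counted in genes, and depth ran from 9955808 reads in shRxr_RA to 13322506 in shGFP_RA. As a check of the labels, Ctbp2 had 210.1 normalised reads in shCtbp2_UT and 55.4 in shCtbp2_RA but 1811 and 701 in the shGFP libraries, and Rxra had 73.7 in shRxr_UT and 82.4 in shRxr_RA but 520.3 and 805 in those of shGFP. Rxrb was not reduced to that extent, at 638 and 546.4 in the shRxr libraries beside 605 and 673 in those of shGFP, Rxrg had at most 18.5 in any library, and the labels do not say which receptor the hairpin targets. Of 8 F9 and pluripotency markers 5 were lowered by RA over the 3 lines and none was raised, against 4.63% and 10.8% of the genes tested below. All 8 were lower in RA in shGFP and shRxr, and 6 in shCtbp2. In shCtbp2 Pou5f1 rose from 18524 untreated to 26185 in RA, and Dppa5a from 4940 to 8488. The summed level of the 8 was 51075 to 51932 untreated and 20529 to 47619 in RA. Fibroblast markers were near 0 for Col3a1, Dcn and Postn, but Pdgfrb was raised and Thy1 lowered, and the list of 7 with a row summed to 131.4 to 172 untreated and 393 to 519 in RA. Blood markers summed to 69.5 to 131.3 and 72.8 to 97.4, nearly all of it Cd68, with Ptprc, Hba-a1 and Lyz2 at or near 0. The part of these shifts in the results below was not tested, and in bulk RNA fewer cells of a type and less RNA per cell cannot be told apart.

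The balance of the 2 genomes differed between RA and untreated libraries, in the opposite direction in shRxr from the other lines. The 12 mitochondrial genes took 1.396% of reads in shGFP_UT and 1.164% in shGFP_RA, 1.384% in shCtbp2_UT and 1.261% in shCtbp2_RA, and 1.385% in shRxr_UT and 1.534% in shRxr_RA. The untreated libraries lay between 1.384% and 1.396%, while in RA the share was lower than untreated in shGFP and shCtbp2 and higher in shRxr. In shCtbp2 this direction rested on mt-Co1, the most read mitochondrial gene: the RA share was 0.911-fold the untreated one with it (95% counting interval 0.905 to 0.918) and 1.075-fold without it (1.066 to 1.084). Without mt-Co1 the folds were 0.841 for shGFP and 1.138 for shRxr. The 91 nuclear genes took, untreated and in RA, 1.118% and 1.239% for shGFP, 1.208% and 1.947% for shCtbp2, and 1.157% and 1.105% for shRxr. Their highest share was in shCtbp2_RA, 1.611-fold that of shCtbp2_UT (95% counting interval 1.6 to 1.622).

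**Figure D1:**
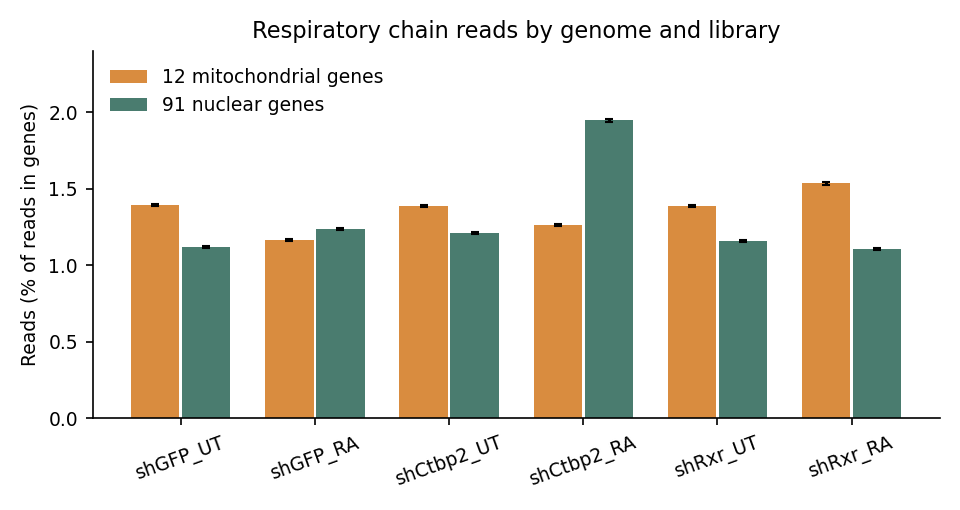
Share of reads in genes (percent, y axis) for the 12 mitochondrial and the 91 nuclear respiratory chain genes in each of the 6 libraries. Bars are single libraries and the black lines are 95% exact binomial intervals, which cover counting error only. The nuclear share was 1.947% in shCtbp2_RA and 1.105% to 1.239% in the other libraries.

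The ratio of mitochondrial to nuclear reads was 1.248 in shGFP_UT and 0.94 in shGFP_RA, 1.145 and 0.648 in shCtbp2, and 1.197 and 1.388 in shRxr. Between RA and untreated the ratio was 0.753-fold for shGFP (95% counting interval 0.745 to 0.76), 0.566-fold for shCtbp2 (0.56 to 0.571) and 1.159-fold for shRxr (1.147 to 1.172). The knock-downs differed little from shGFP when untreated, at 0.917-fold (0.908 to 0.927) in shCtbp2 and 0.959-fold (0.949 to 0.968) in shRxr. In RA they stood at 0.689-fold (0.683 to 0.696) and 1.477-fold (1.461 to 1.492). These intervals hold no difference between cultures, and the ratio, a sum over chosen members, was given no test. Without mt-Co1 the change in shCtbp2 was 0.667-fold and in shRxr 1.191-fold.

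GC content differed between the genomes, and the RA response of all genes moved with it in shGFP and shCtbp2 and hardly in shRxr. Transcripts of the mitochondrial genes had a median GC content of 36.5% (31.9% to 39.9%) and those of the nuclear genes tested 51.5% (39.5% to 60.4%). Across all genes with a GC value (n = 12133), the RA response correlated with GC content at Spearman 0.37 for shGFP, 0.64 for shCtbp2 and -0.07 for shRxr, a description over genes that share the same 2 libraries. All genes with the GC range of the mitochondrial members (n = 447) had a median RA response of -0.83 for shGFP, -1.06 for shCtbp2 and 0.12 for shRxr on the scale log2(level + 10), used for all log2 changes here, which understates changes of low genes. The 12 mitochondrial genes had medians of -0.27, 0.14 and 0.16. After an adjustment for GC and length within each library their medians were 0.72, 0.94 and 0.16, so that the sign in shGFP turned. For these genes the adjustment works at the edge of the GC range. The lowest GC content of all genes tested is the 31.9% of mt-Atp8, so few other genes support the adjustment there. The part of GC content in the balance of the genomes was not tested.

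By median, mitochondrial transcripts were the most abundant of the chain. Mean level per kilobase of transcript ran from 1220 for mt-Atp8 to 23473 for mt-Co1, with a median of 10712. The medians of the nuclear groups lay between 138 for the Ndufaf assembly factors and 1388 for complexes III and V, and single nuclear genes reached 9148 (Cox4i1) and 13889 (Atp5b). The mitochondrial rows overlap: mt-Atp8 and mt-Atp6 share 43 bases and mt-Nd5 and mt-Nd6 share 14. The kit named in the labels does not mark strand, so reads of mt-Nd6, the gene on the opposite strand, and antisense RNA of the others cannot be told apart.

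The core complex IV gene mt-Co1 (mm9 chromosome MT, 5328 to 6872), which encodes the catalytic subunit, stood at 40392 in shGFP_UT and 33060 in shGFP_RA, 43539 in shCtbp2_UT and 24143 in shCtbp2_RA, and 37726 in shRxr_UT and 38738 in shRxr_RA. Its RA level was lower than untreated in shGFP and shCtbp2, with shCtbp2_RA the lowest of all 6, and close to it in shRxr. The fold was 0.819 (95% counting interval 0.808 to 0.829) for shGFP, 0.555 (0.546 to 0.563) for shCtbp2 and 1.027 (1.013 to 1.041) for shRxr. The copper-binding subunit gene mt-Co2 (7013 to 7696) stood at 10952 in shGFP_UT and 9188 in shGFP_RA, 10991 in shCtbp2_UT and 11089 in shCtbp2_RA, and 11003 in shRxr_UT and 11252 in shRxr_RA. It was low in shGFP_RA alone. The third complex IV core gene, mt-Co3 (8607 to 9390), stood at 13265 in shGFP_UT and 13334 in shGFP_RA, 14383 in shCtbp2_UT and 17506 in shCtbp2_RA, and 13283 in shRxr_UT and 15006 in shRxr_RA. Here shCtbp2_RA was the highest of the 6.

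Of the complex I core genes, mt-Nd1 (2751 to 3707) was the most read and stood at 20857 in shGFP_UT and 16298 in shGFP_RA, 19963 in shCtbp2_UT and 22396 in shCtbp2_RA, and 20663 in shRxr_UT and 21321 in shRxr_RA. The genes mt-Nd2 (3914 to 4951) and mt-Nd4 (10167 to 11544), which encode proton-pumping subunits, had RA responses of -0.39 and -0.15 for shGFP, 0.12 and 0.16 for shCtbp2, and 0.18 and 0.35 for shRxr (log2). Their highest level was in shRxr_RA, at 15149 and 16373. The distal pump subunit gene mt-Nd5 (11742 to 13565) stood at 7348 in shGFP_UT and 6017 in shGFP_RA, 6912 in shCtbp2_UT and 5744 in shCtbp2_RA, and 7932 in shRxr_UT and 8733 in shRxr_RA, lower in RA in shGFP and shCtbp2 and higher in shRxr. The neighbouring mt-Nd6 (13552 to 14070) had log2 responses of -0.30, -0.30 and 0.15, and mt-Nd3 (9459 to 9806) of -0.03, 0.40 and 0.17.

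The complex III gene mt-Cytb (14145 to 15288), which encodes cytochrome b, stood at 14782 in shGFP_UT and 11555 in shGFP_RA, 13860 in shCtbp2_UT and 12841 in shCtbp2_RA, and 15106 in shRxr_UT and 19410 in shRxr_RA. It was low in shGFP_RA and high in shRxr_RA. The complex V genes mt-Atp8 (7766 to 7969) and mt-Atp6 (7927 to 8607), which encode membrane subunits of the ATP synthase, were high in shCtbp2_RA. The level of mt-Atp8 was 223 in shGFP_UT and 189 in shGFP_RA, 208 in shCtbp2_UT and 306 in shCtbp2_RA, and 263 in shRxr_UT and 304 in shRxr_RA. That of mt-Atp6 was 2780 in shGFP_UT and 2418 in shGFP_RA, 2529 in shCtbp2_UT and 3583 in shCtbp2_RA, and 2738 in shRxr_UT and 3054 in shRxr_RA. Their log2 responses in shCtbp2 were 0.54 and 0.50, against -0.85 for mt-Co1 in the same libraries.

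Across the 12 genes the direction was shared in 2 of the lines: 11 of 12 were lower in RA for shGFP and 12 of 12 higher for shRxr, against 8 higher and 4 lower for shCtbp2. Over all 12332 genes tested the median was 0.12, 0.07 and 0.09 in the 3 lines, with 7108, 6462 and 7358 of them higher in RA. Only mt-Co3 was higher in all 3 lines and none of the 12 was lower in all 3, against a background of 33.3% and 19.9%. None of the 12 had RA levels that lay above or below all its untreated levels, against a background of 24.1% and 13.9%. The limma trend model over the 3 lines called 0 of 12 raised and 0 lowered at a Benjamini-Hochberg adjusted p under 0.05, where the background was 10.8% raised and 4.63% lowered of 12332 genes. None had an unadjusted p under 0.05, where the background was 31% of all genes, and the smallest adjusted p was 0.396, for mt-Co1 (log2 change -0.37, SE 0.28, adjusted p 0.396). Upper quartile scaling lowered the median of all genes by 0.155 in shGFP and 0.102 in shRxr, and the mitochondrial members then counted 12 of 12 lower in shGFP and 9 of 12 higher in shRxr. After the adjustment for GC and length limma called 4 raised, mt-Atp6, mt-Atp8, mt-Nd3 and mt-Nd4. These genes lie at the low edge of the GC range, where few other genes support the adjustment.

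**Figure D2:**
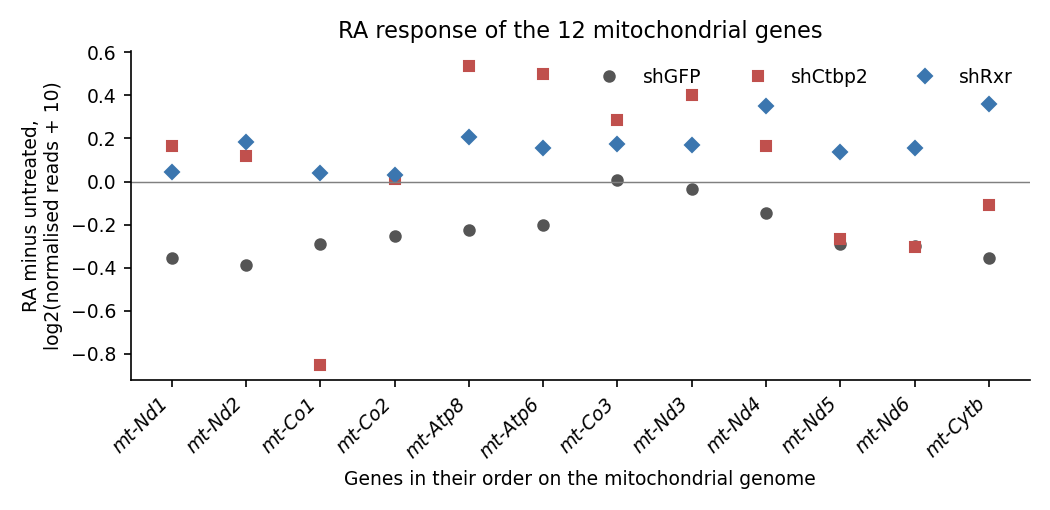
RA minus untreated level on the scale log2(normalised reads + 10) (y axis) for the 12 mitochondrial genes in their genome order (x axis), 1 point per line, with no error since each point compares 2 libraries. Points of shRxr lie above 0 for 12 of 12 genes and those of shGFP below 0 for 11 of 12, and the lowest point is mt-Co1 in shCtbp2 at -0.85.

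The nuclear genes as a group were higher in RA in shCtbp2 and changed less in the other lines. Of the 91, 87 reached a mean of at least 20 normalised reads and were tested. The median RA response of the 87 was 0.19 for shGFP, 0.70 for shCtbp2 and -0.02 for shRxr (log2). Of them 69, 74 and 40 were positive, where 7108, 6462 and 7358 of all 12332 genes tested were. At least 2-fold higher on this scale were 2 for shGFP, 18 for shCtbp2 and 1 for shRxr, where the background was 13.4%, 15.1% and 5.26% of all genes tested. At least 2-fold lower were 1, 2 and 1, against a background of 7.07%, 19.3% and 1.46%. In all 3 lines 32 were higher and 6 lower, against a background of 33.3% and 19.9%. With median-of-ratios scaling the medians were 0.08, 0.71 and -0.14, and after the adjustment for GC and length 0.07, 0.26 and -0.04. With upper quartile scaling 49, 77 and 21 of the 87 were positive. The 18 genes at least 2-fold higher in shCtbp2 were 4 after the adjustment for GC and length and 8 with a pseudocount of 50.

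Over the 3 lines limma called 2 nuclear genes raised by RA, Cox7a1 and Cox6a2, and 1 lowered, Ndufa4l2, all of them alternative forms of complex IV subunits. These are 2 and 1 of 87, below the background shares of 10.8% and 4.63%, and 7 of the 87 had an unadjusted p under 0.05, also below the background of 31%. Spread between the lines was small before treatment and larger after it. The highest of the 3 untreated levels was within 1.5-fold of the lowest for 82 of 87 nuclear genes (94.3%) and 12 of 12 mitochondrial genes, against 81.7% of all genes. Among the 3 RA libraries this held for 20 of 87 (23%) and 6 of 12, against 32.3%. The residual of the model holds these differences between lines in RA response.

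The nuclear complex I genes, with 7 core subunits, 29 accessory subunits and 4 assembly factors, had no limma call in either direction, and 1 accessory subunit had an unadjusted p under 0.05. The core subunit gene Ndufs8, which carries iron-sulphur clusters, stood at 424 in shGFP_UT and 586 in shGFP_RA, 369 in shCtbp2_UT and 1011 in shCtbp2_RA, and 459.5 in shRxr_UT and 429 in shRxr_RA. Its level in shCtbp2_RA was 2.74-fold (2.45 to 3.07) that of shCtbp2_UT, and its test gave no call (log2 change 0.60, SE 0.31, adjusted p 0.21 by limma with Benjamini-Hochberg adjustment).

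Ndufs1, the largest iron-sulphur subunit, went the other way and stood at 1462 in shGFP_UT and 1114 in shGFP_RA, 1453 in shCtbp2_UT and 507 in shCtbp2_RA, and 1317 in shRxr_UT and 1290 in shRxr_RA. The RA levels were all below the untreated ones, narrowly so in shRxr, and shCtbp2_RA was lowest. In RA it was 2.87-fold (2.6 to 3.17) lower in shCtbp2 and 1.31-fold (1.23 to 1.41) lower in shGFP, with 95% counting intervals in parentheses. By limma with Benjamini-Hochberg adjustment it had no call (log2 change -0.64, SE 0.30, adjusted p 0.172). Its transcript has a GC content of 45.9%, below the median of the nuclear members.

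Of the 29 accessory subunits 26 were positive for shGFP, 26 for shCtbp2 and 18 for shRxr, with medians of 0.27, 0.71 and 0.05 (log2). RA levels lay above all untreated levels for 9 of the 29, against a background of 24.1% of all genes. Ndufa9, which sits where the membrane and matrix arms meet, was the most read and stood at 1229 in shGFP_UT and 1308 in shGFP_RA, 1395 in shCtbp2_UT and 2183 in shCtbp2_RA, and 1289 in shRxr_UT and 1217 in shRxr_RA. At least 2-fold higher in shCtbp2 were 5 of the 29 accessory subunits, against a background of 15.1% of all genes. The 3 with the largest responses were Ndufa11, Ndufa3 and Ndufb11, all of the membrane arm. Ndufa11 stood at 579 in shGFP_UT and 819.7 in shGFP_RA, 562 in shCtbp2_UT and 1350 in shCtbp2_RA, and 579 in shRxr_UT and 622 in shRxr_RA. Ndufa3 stood at 214 in shGFP_UT and 399 in shGFP_RA, 246 in shCtbp2_UT and 534 in shCtbp2_RA, and 221 in shRxr_UT and 255 in shRxr_RA. Ndufb11 stood at 751 in shGFP_UT and 1013 in shGFP_RA, 805 in shCtbp2_UT and 1652 in shCtbp2_RA, and 694 in shRxr_UT and 782 in shRxr_RA. Each of these had its highest level in shCtbp2_RA and its second highest in shGFP_RA. Limma with Benjamini-Hochberg adjustment gave adjusted p 0.163, 0.104 and 0.195 for the RA effect. Without the shRxr line Ndufa3 (adjusted p 0.0374) and the core gene Ndufs8 (adjusted p 0.0459) were called raised, and Ndufa3 also after the adjustment for GC and length (adjusted p 0.0475). The assembly factors had medians of -0.10, 0.26 and -0.08, and Ndufaf1, the most read by total level, stood at 243 in shGFP_UT and 224 in shGFP_RA, 253 in shCtbp2_UT and 250.4 in shCtbp2_RA, and 228 in shRxr_UT and 225 in shRxr_RA.

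All 4 genes of complex II, which oxidises succinate and belongs to the citrate cycle too, were higher in RA for shGFP and for shCtbp2 and lower for shRxr, and by limma none was called or had an unadjusted p under 0.05. Sdha, the flavoprotein subunit, stood at 3692 in shGFP_UT and 3743 in shGFP_RA, 4237 in shCtbp2_UT and 4753 in shCtbp2_RA, and 3975 in shRxr_UT and 3583 in shRxr_RA, a fold of 1.014 for shGFP (95% counting interval 0.974 to 1.056), 1.122 for shCtbp2 (1.078 to 1.167) and 0.901 for shRxr (0.863 to 0.942). Sdhb, the iron-sulphur subunit, stood at 512 in shGFP_UT and 551 in shGFP_RA, 609.6 in shCtbp2_UT and 1132 in shCtbp2_RA, and 509 in shRxr_UT and 470.1 in shRxr_RA. It was high in shCtbp2_RA, at a log2 response of 0.88.

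Complex III had 8 nuclear members, none called by limma and 1 with an unadjusted p under 0.05, with medians of 0.06, 0.79 and -0.08 in the 3 lines. Uqcrc1, a core protein and the most read, stood at 3563 in shGFP_UT and 3332 in shGFP_RA, 4071 in shCtbp2_UT and 7482 in shCtbp2_RA, and 3755 in shRxr_UT and 3034 in shRxr_RA, high in shCtbp2_RA and low in shRxr_RA. Of the 8, the small subunits Uqcrq and Uqcr11 were at least 2-fold higher in shCtbp2, against a background of 15.1% of all genes. Uqcrq stood at 1079 in shGFP_UT and 1647 in shGFP_RA, 1052 in shCtbp2_UT and 2363 in shCtbp2_RA, and 1081 in shRxr_UT and 1142 in shRxr_RA, with every RA level above every untreated one. Uqcr11 stood at 453 in shGFP_UT and 616 in shGFP_RA, 491 in shCtbp2_UT and 1009 in shCtbp2_RA, and 499.7 in shRxr_UT and 479 in shRxr_RA, and here shRxr_RA overlapped the untreated levels. The first had an adjusted p of 0.153 and the second of 0.286 by limma with Benjamini-Hochberg adjustment.

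Complex V had 17 nuclear members, with Atp5s and Atp5sl counted in by name. None was called by limma or had an unadjusted p under 0.05, and the medians were 0.21, 0.73 and -0.06. Atp5b, the catalytic beta subunit and the most read nuclear member, stood at 22520 in shGFP_UT and 22392 in shGFP_RA, 24750 in shCtbp2_UT and 43685 in shCtbp2_RA, and 24009 in shRxr_UT and 22308 in shRxr_RA. The 3 untreated levels and the RA levels of shGFP and shRxr lay close together, and shCtbp2_RA was 1.76-fold (1.74 to 1.79) its untreated level. At least 2-fold higher in shCtbp2 were 3 of the 17, against a background of 15.1% of all genes. Atp5g1, 1 of 3 genes for the rotor ring subunit, stood at 284 in shGFP_UT and 384 in shGFP_RA, 277 in shCtbp2_UT and 632 in shCtbp2_RA, and 331 in shRxr_UT and 340.5 in shRxr_RA, with RA and untreated levels apart. Atp5e and Atp5d, of the central stalk, had log2 responses of 1.02 and 1.01 for shCtbp2, 0.21 and 0.32 for shGFP, and -0.14 and -0.06 for shRxr. Atp5j, of the peripheral stalk, was the only complex V member with all RA levels below all untreated ones, by little, at 1285 in shGFP_UT and 1171 in shGFP_RA, 1357 in shCtbp2_UT and 1182 in shCtbp2_RA, and 1245 in shRxr_UT and 1172 in shRxr_RA. Many nuclear members have processed pseudogenes of near-identical sequence, and how the counting split reads between a gene and its copies is not given in the sources used here.

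Complex IV held the 3 calls of the whole set. Of its 20 nuclear members 17 were tested, with medians of 0.37, 0.65 and 0.06, and 3 were not, Cox7b2 at 0.751 to 5.02 normalised reads and Cox8b and Cox8c with no read in any library. With 0 reads a level of up to 2.25 to 3.01 normalised reads, or 3 reads per library, remains possible. Cox8b is the muscle form and Cox8c and Cox7b2 are forms of the testis.

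Cox7a1 (ENSMUSG00000074218, mm9 chromosome 7, 30969190 to 30971047), the heart and skeletal muscle form of subunit 7a, stood at 36.2 in shGFP_UT and 169.6 in shGFP_RA, 28.9 in shCtbp2_UT and 274 in shCtbp2_RA, and 58.6 in shRxr_UT and 161 in shRxr_RA normalised reads. Every RA level was above every untreated level, with the highest in shCtbp2_RA. It was 4.68-fold (3.39 to 6.6) higher in RA for shGFP, 9.47-fold (6.65 to 13.9) for shCtbp2 and 2.74-fold (2.06 to 3.69) for shRxr, with 95% counting intervals in parentheses. Over the lines it rose by limma with Benjamini-Hochberg adjustment (log2 change 2.05, SE 0.33, adjusted p 0.00127), and the call held in all settings run. Its broadly expressed partner Cox7a2, whose promoter is shown above beside that of Cox7a1, stood at 816 in shGFP_UT and 944 in shGFP_RA, 901 in shCtbp2_UT and 1193 in shCtbp2_RA, and 804 in shRxr_UT and 826 in shRxr_RA and had no call (adjusted p 0.598 by limma). Per kilobase, Cox7a1 made up 6.93% of the pair in shGFP_UT and 23.2% in shGFP_RA, 5.11% and 27.8% in shCtbp2, and 10.9% and 24.6% in shRxr.

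Cox6a2 (ENSMUSG00000030785, mm9 chromosome 7, 135348950 to 135349880), the muscle form of subunit 6a, stood at 11.3 in shGFP_UT and 47.3 in shGFP_RA, 12.4 in shCtbp2_UT and 90.1 in shCtbp2_RA, and 24.3 in shRxr_UT and 42.2 in shRxr_RA. The RA levels were again all above the untreated levels, widest in shCtbp2 and narrowest in shRxr, where the untreated level was highest. It was 4.19-fold (2.32 to 8.11) higher in RA for shGFP, 7.26-fold (4.18 to 13.5) for shCtbp2 and 1.74-fold (1.06 to 2.89) for shRxr. It rose over the lines by limma with Benjamini-Hochberg adjustment (log2 change 1.4, SE 0.34, adjusted p 0.0148). This call was lost without the shGFP line (log2 change 1.38, adjusted p 0.0913), without the shCtbp2 line (1.02, adjusted p 0.136) and with no minimum on level (1.4, adjusted p 0.057). Its partner Cox6a1, with the NRF1 and ETS matches shown above, stood at 2060 in shGFP_UT and 2773 in shGFP_RA, 2167 in shCtbp2_UT and 4411 in shCtbp2_RA, and 1979 in shRxr_UT and 2103 in shRxr_RA with no call, and Cox6a2 made up at most 1.69% of the pair per kilobase.

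Ndufa4l2 (ENSMUSG00000040280, mm9 chromosome 10, 126951995 to 126954208), a paralog of the complex IV subunit gene Ndufa4 and a known target of hypoxia-inducible factor, stood at 58.0 in shGFP_UT and 7.51 in shGFP_RA, 116 in shCtbp2_UT and 19.8 in shCtbp2_RA, and 28.5 in shRxr_UT and 3.01 in shRxr_RA. All RA levels were below all untreated ones, and the level of shCtbp2_UT was above those of the other untreated lines. In RA it was 7.73-fold (3.97 to 16.8) lower for shGFP, 5.85-fold (3.65 to 9.87) lower for shCtbp2 and 9.44-fold (2.97 to 48.1) lower for shRxr, where 3 reads were left. It fell over the lines by limma with Benjamini-Hochberg adjustment (log2 change -1.87, SE 0.30, adjusted p 0.00139), and this call held in all settings in which it was tested. Ndufa4 stood at 1049 in shGFP_UT and 1359 in shGFP_RA, 1092 in shCtbp2_UT and 1141 in shCtbp2_RA, and 1086 in shRxr_UT and 1234 in shRxr_RA, with no call (log2 change 0.21, SE 0.25, adjusted p 0.613). Per kilobase the share of Ndufa4l2 in the pair was 3.05% untreated and 0.313% in RA for shGFP, 5.69% and 0.977% for shCtbp2, and 1.47% and 0.139% for shRxr.

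The remaining alternative forms had no call. Cox6b2, the testis form of subunit 6b, stood at 236 in shGFP_UT and 170.4 in shGFP_RA, 189 in shCtbp2_UT and 133 in shCtbp2_RA, and 249 in shRxr_UT and 177 in shRxr_RA, all RA levels below all untreated ones, with log2 responses of -0.45, -0.48 and -0.47 (log2 change -0.46, SE 0.27, adjusted p 0.259 by limma with Benjamini-Hochberg adjustment). After the adjustment for GC and length it was called lowered (log2 change -0.85, adjusted p 0.0282 by limma). Cox4i2, the lung form of subunit 4, stood at 18.5 in shGFP_UT and 43.5 in shGFP_RA, 10.8 in shCtbp2_UT and 37.6 in shCtbp2_RA, and 23.4 in shRxr_UT and 25.1 in shRxr_RA and had an adjusted p of 0.149. RA levels lay above untreated ones by a narrow margin in shRxr, and without the shRxr line it was called raised (log2 change 1.05, adjusted p 0.024 by limma). Its partner Cox4i1, the most read nuclear complex IV gene, stood at 5017 in shGFP_UT and 7902 in shGFP_RA, 5551 in shCtbp2_UT and 12060 in shCtbp2_RA, and 5301 in shRxr_UT and 5610 in shRxr_RA, with RA above untreated in all lines and an adjusted p of 0.147 by limma. Cox7b stood at 2241 in shGFP_UT and 1933 in shGFP_RA, 2253 in shCtbp2_UT and 1535 in shCtbp2_RA, and 2092 in shRxr_UT and 1879 in shRxr_RA, with all RA levels below all untreated ones.

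**Figure D3:**
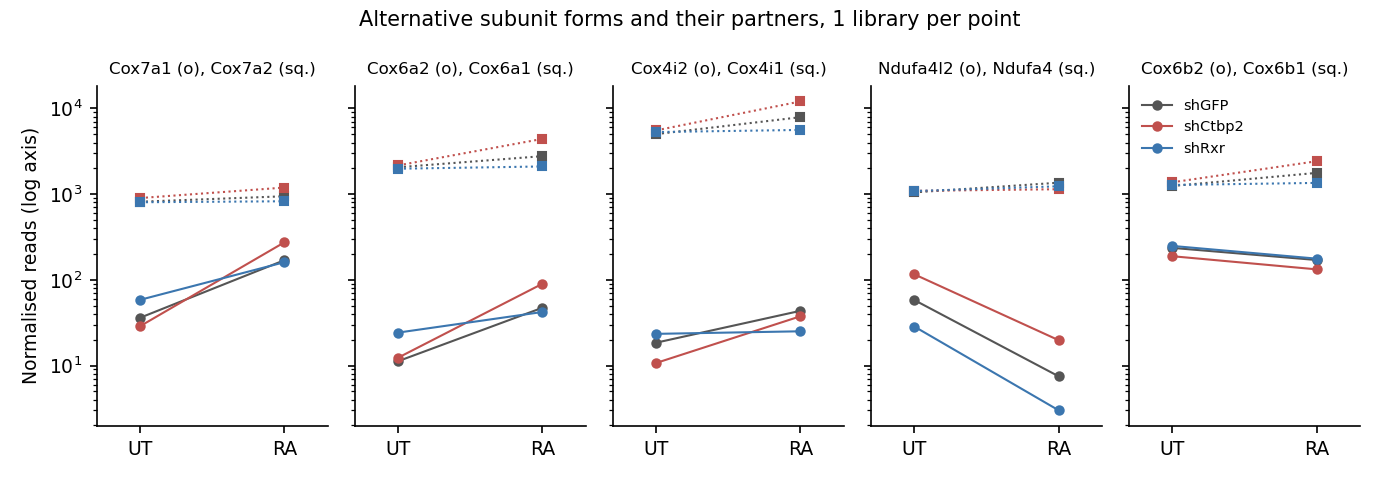
Normalised reads (log y axis) of 5 alternative subunit forms (circles, solid lines) and their broadly expressed partners (squares, dotted lines), untreated and in RA, with 1 library per point and a colour for each line. Cox7a1, Cox6a2 and Cox4i2 are higher in RA in all 3 lines and Ndufa4l2 and Cox6b2 lower. The partner genes lie between 804 and 12060 normalised reads. Of these, Cox7a2, Cox6a1, Cox4i1 and Ndufa4 are also higher in RA in all 3 lines.

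Over all tested members RA levels lay above all untreated levels for 21 of 87 nuclear genes, against a background of 24.1%, and below for 5, against 13.9%. The 5 were Atp5j, Cox6b2, Cox7b, Ndufa4l2 and Ndufs1. The first count is at the background share and the second below it.

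Before treatment the knock-downs differed little from shGFP by the median of the respiratory chain genes. Untreated, the median difference from shGFP was 0.08 for nuclear and -0.09 for mitochondrial genes in shCtbp2, and 0.04 and 0.01 in shRxr (log2), beside -0.03 and 0.01 for all genes. Higher than shGFP were 66 of 87 nuclear and 3 of 12 mitochondrial genes in shCtbp2, and 62 and 8 in shRxr. Of all 12332 genes tested 5512 and 6321 were higher. In RA the nuclear median was 0.56 in shCtbp2, with 77 of 87 higher, and -0.19 in shRxr, with 76 of 87 lower. The mitochondrial median in RA was 0.28 in shCtbp2, with 9 of 12 higher, and 0.45 in shRxr, with 12 of 12 higher. The medians of all genes were -0.19 and -0.07. Those of the 447 other genes with the GC range of the mitochondrial members were -0.41 in shCtbp2 and 0.82 in shRxr. Of all 12332 genes tested 5075 were higher in shCtbp2 in RA, and in shRxr 5292 were higher and 7040 lower. All these differences share the shGFP libraries. At least 2-fold from shGFP on the scale log2(level + 10), untreated, were 0 members in shCtbp2 (background 1.39% higher and 2.34% lower) and 0 in shRxr (0.389% and 0.0649%). In RA, Uqcrc1 and Sdhb were at least 2-fold higher and Ndufs1 lower in shCtbp2 (3.18% and 14.8%), and 0 members passed in shRxr (3.74% and 2.62%). With a pseudocount of 1, which weighs low genes more, Cox6a2 was at least 2-fold higher and Ndufa4l2 lower in shRxr untreated. In RA, Ndufa4l2 and Ndufaf3 then joined the 2 higher genes in shCtbp2, and Ndufa4l2 was lower in shRxr. With median-of-ratios scaling 4 were higher and 0 lower in shCtbp2 in RA, and after the adjustment for GC and length Sdhc alone was higher and Cox6b2 alone lower. After the adjustment for GC and length the mitochondrial median of shRxr against shGFP in RA was -0.43, with 11 of 12 lower, again at the low edge of the GC range. That of shCtbp2 was 0.11, with 7 of 12 higher. The adjusted nuclear medians in RA were 0.28 in shCtbp2, with 62 of 87 higher, and -0.04 in shRxr, with 52 of 87 lower. Over all genes with a GC value, Spearman's correlation of these unadjusted differences in RA with GC content was 0.50 for shCtbp2 and -0.53 for shRxr. The part of GC content in them was not tested.

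Averaged over both treatments, limma called 0 of 87 nuclear and 0 of 12 mitochondrial genes in either direction for shCtbp2 with Benjamini-Hochberg adjustment. The background was 0.105% raised and 0.0405% lowered. Of the members 1 nuclear and 0 mitochondrial genes had an unadjusted p under 0.05, against 8.85% of all genes, and the smallest adjusted p was 0.546, for Ndufa4l2. For shRxr it also called 0 of 87 and 0 of 12, where the background was 0% raised and 0.00811% lowered, and 0 had an unadjusted p under 0.05, against 1.23%. Without the shCtbp2_UT library, which leaves that line with shCtbp2_RA alone, limma called Uqcrc1 and Atp5b among 3 raised genes and Ndufs1 lowered in shCtbp2.

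**Figure D4:**
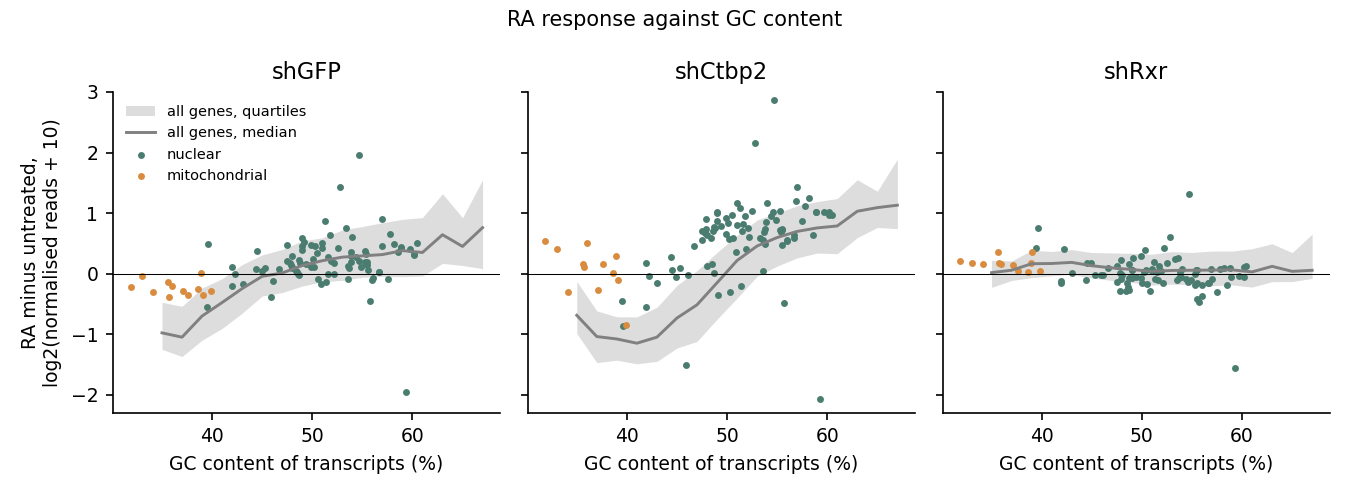
RA minus untreated level on the scale log2(normalised reads + 10) (y axis) against GC content of transcripts (percent, x axis) for nuclear and mitochondrial members in each line. The grey line and band give the median and quartiles of all tested genes in GC bins. Mitochondrial genes lie between 31.9% and 39.9% GC, where the grey median, drawn for bins of at least 20 genes, is below 0 in shGFP and shCtbp2.

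Split by GC content into 3 groups of 29, the nuclear members had median responses in shCtbp2 of 0.28 for the lowest, 0.71 for the middle and 0.94 for the highest GC. All genes of the same GC ranges had medians of -0.77, 0.26 and 0.68. In shGFP the members' medians were 0.09, 0.24 and 0.30, beside -0.11, 0.23 and 0.32 for all genes. In shRxr they were -0.02, 0.03 and -0.08, beside 0.13, 0.05 and 0.06. Across the 87 nuclear members Spearman's correlation of response and GC content was 0.25, 0.50 and -0.17 in the 3 lines, as a description over genes measured in the same libraries. The nuclear members tested also had short transcripts, with a median length of 865 bases against 2953 for all genes tested. Over all genes Spearman's correlation of RA response and length was -0.04, -0.31 and 0.14 in the 3 lines. Over the nuclear members it was -0.38, -0.25 and -0.19. The groups by GC content were not matched for length. The part of GC content and length in the nuclear responses was not tested.

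Other genes of mitochondrial respiration were described from lists, to be read against the background of 10.8% raised, 4.63% lowered and 31% with an unadjusted p under 0.05. A list of respiratory chain genes outside the symbol rule, some of them subunit genes such as Cyc1, had 12 tested. Of these Slc25a4, the muscle and heart ATP/ADP carrier, rose, and Gpd2, the mitochondrial glycerol phosphate dehydrogenase, fell. Slc25a4 stood at 2483 in shGFP_UT and 6130 in shGFP_RA, 1350 in shCtbp2_UT and 6720 in shCtbp2_RA, and 3740 in shRxr_UT and 5288 in shRxr_RA, with all RA levels above all untreated ones (log2 change 1.37, SE 0.32, adjusted p 0.0119 by limma with Benjamini-Hochberg adjustment). Gpd2 stood at 1459 in shGFP_UT and 696 in shGFP_RA, 2173 in shCtbp2_UT and 658 in shCtbp2_RA, and 1291 in shRxr_UT and 772 in shRxr_RA (log2 change -1.17, SE 0.28, adjusted p 0.0121). Cycs, cytochrome c, stood at 362 in shGFP_UT and 341 in shGFP_RA, 408 in shCtbp2_UT and 363 in shCtbp2_RA, and 369 in shRxr_UT and 438 in shRxr_RA, with no call. Cyc1 stood at 2581 in shGFP_UT and 2701 in shGFP_RA, 2945 in shCtbp2_UT and 5439 in shCtbp2_RA, and 2795 in shRxr_UT and 2409 in shRxr_RA. It had no call either. Of 28 tested assembly factors of complexes I to V none was called by limma, 1 had an unadjusted p under 0.05, and their medians were -0.01, 0.20 and -0.07 in the 3 lines.

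Genes that copy, transcribe or process mitochondrial DNA and RNA had lower medians than the nuclear members of the chain, at -0.33 for shGFP, -0.58 for shCtbp2 and -0.17 for shRxr. Of 27 tested none was raised and 1 was lowered, Ptcd3, which binds the mitochondrial ribosome (log2 change -1.0, SE 0.30, adjusted p 0.041 by limma with Benjamini-Hochberg adjustment), where 4.63% of all genes were lowered. Of the 27, 9 had an unadjusted p under 0.05 by limma, against 31% of all genes. RA levels lay below all untreated levels for 10 and above them for 3, against a background of 13.9% and 24.1%. Tfam, which packages mitochondrial DNA and starts its transcription, stood at 1225 in shGFP_UT and 847 in shGFP_RA, 1058 in shCtbp2_UT and 482 in shCtbp2_RA, and 1100 in shRxr_UT and 978 in shRxr_RA, lowest in shCtbp2_RA, with no call (adjusted p 0.153). Polrmt, the mitochondrial RNA polymerase, stood at 729.7 in shGFP_UT and 699 in shGFP_RA, 659 in shCtbp2_UT and 953 in shCtbp2_RA, and 719.8 in shRxr_UT and 556 in shRxr_RA. The median GC content of this list was 45.9%, below that of the nuclear members. Of 74 tested mitochondrial ribosomal protein genes none was called by limma, with medians of -0.03, 0.47 and -0.14, and 5 had an unadjusted p under 0.05, a smaller share than the 31% of all genes.

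Of 11 tested regulators of mitochondrial genes none was called by limma, and 2 had an unadjusted p under 0.05, against 31% of all genes. Gabpa, the DNA-binding subunit of GABP, stood at 1935 in shGFP_UT and 838 in shGFP_RA, 1827 in shCtbp2_UT and 616 in shCtbp2_RA, and 1804 in shRxr_UT and 1997 in shRxr_RA, lower in RA in shGFP and shCtbp2 and not in shRxr (adjusted p 0.0859 by limma). Esrra, an orphan receptor known to act on respiratory genes, stood at 143 in shGFP_UT and 259.7 in shGFP_RA, 139.8 in shCtbp2_UT and 469 in shCtbp2_RA, and 190.0 in shRxr_UT and 231 in shRxr_RA, with all RA levels above all untreated ones (adjusted p 0.0612). Nrf1 stood at 845 in shGFP_UT and 735 in shGFP_RA, 784 in shCtbp2_UT and 989.8 in shCtbp2_RA, and 827 in shRxr_UT and 752 in shRxr_RA, and the coactivator gene Ppargc1a had at most 0.837 normalised reads in any library. The lists of 10 translation factors, 16 citrate cycle genes and 15 import and chaperone genes, all tested, had no limma call either, with 1 unadjusted p under 0.05 in each.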

How the data were processed

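RNA was measured in 6 libraries, prepared by TruSeq RNA reagents and read on an Illumina HiSeq, per the labels' protocols. Per the submitters' processing notes, the authors used TopHat 1.4, HTSeq and the build mm9. For the annotation release, counting mode and strand setting, the sources used here say nothing. The deposited values are log2 of 1 plus the reads of a gene scaled to 10000000 reads in genes, as read from the values: divided by the value of 1 read, the unlogged values are whole numbers within 1e-06 for 100% of values. Of the columns of values 0 matched no library.

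Groups were taken from the labels, with 1 library each. Folds within a line compare levels of 2 libraries, with 95% exact binomial intervals (Clopper-Pearson) that cover counting error only. Log2 changes use a pseudocount of 10. Tests used limma 3.58.1 (R 4.3.3), trend model with line and treatment as terms, on all 12332 genes with a mean of at least 20, with Benjamini-Hochberg adjustment at 0.05. Lines stood in as replicates of the treatment, so p-values measure the spread between these libraries, which includes differences between lines in RA response. The model was tested on simulated data in which the RA changes were the same in every line. That test does not cover lines that differ in RA response, as these do. GC content and length are medians over protein-coding transcripts of the GENCODE basic set (GRCm38), those tagged APPRIS principal where a gene has any, with a value for 103 of 103 members. Tables and figures were made in Python 3.11.15 with pandas 2.3.3, numpy 2.4.6, matplotlib 3.10.9 and scipy 1.17.1.

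The members and lists were chosen with earlier results of these data known. Named genes were the mitochondrial members, the most read gene of each group, up to 3 limma calls per contrast and direction, up to 3 with a 2-fold RA response per line and direction, and the alternative forms with their partners. A result under this rule is not reported here. Other members and list genes were named after their values were seen. Alternatives were other pseudocounts, minimum levels and scalings, an adjustment for GC and length, limma voom, and leaving out libraries or lines.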

Additional observations from a re-analysis of the deposited data

Results flagged for a closer look

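The RA response went in opposite directions in different lines for the ratio of the 2 genomes and for 11 of 99 members tested (by at least 0.25 on the log2 scale each way), where 16.6% of all genes did the same. With 1 library per group these differences between lines were not tested. The ratio of mitochondrial to nuclear reads in RA over untreated was 0.753 for shGFP and 0.566 for shCtbp2 but 1.159 for shRxr.

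In complex I, the accessory subunit gene Ndufa5 had log2 responses of 0.46 for shGFP and 0.39 for shRxr but -0.30 for shCtbp2. Ndufb6 had 0.59 in shCtbp2 and -0.29 in shRxr. The assembly factor genes also parted: Ndufaf4 had -0.55 for shGFP, -0.46 for shCtbp2 and 0.43 for shRxr, and Ndufaf3 had 0.54 for shCtbp2 and -0.38 for shRxr. In complex III, mt-Cytb had -0.35 for shGFP and 0.36 for shRxr, Uqcr10 had 0.47 for shCtbp2 and -0.43 for shRxr, and Uqcrc1 had 0.88 and -0.31.

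In complex V, the peripheral stalk gene Atp5f1 had 0.52 for shGFP and 0.26 for shRxr but -0.36 for shCtbp2. Atp5s, counted in complex V by name, had 0.49 and 0.76 but -0.87. Its levels were 34.6 in shGFP_UT and 52.5 in shGFP_RA, 57.1 in shCtbp2_UT and 26.7 in shCtbp2_RA, and 36.8 in shRxr_UT and 69.3 in shRxr_RA. Atp5l had 0.68 in shCtbp2 and -0.28 in shRxr. Cox4nb, a member by name alone, had 0.35 in shCtbp2 and -0.29 in shRxr.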

How the results depend on the processing

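For the RA effect, 2 nuclear genes were called raised and 1 lowered. With no minimum on level 1 was raised, and with a mean of at least 100, at which Cox6a2 and Ndufa4l2 were not tested, 1 was raised and 0 lowered. After the adjustment for GC and length 4 nuclear genes were raised and 2 lowered, and 4 mitochondrial genes, at the low edge of the GC range, were raised, against 0. Without the shGFP line 1 was raised, without the shCtbp2 line 1 and without the shRxr line 5. Leaving out single libraries gave 1 to 5 raised nuclear genes, and for shCtbp2 against shGFP 0 to 3 raised and 0 to 1 lowered, the highest without shCtbp2_UT. Cox6a2 lost its call when any of the shGFP or shCtbp2 libraries was left out (adjusted p 0.086 to 0.144 by limma). Leaving out 1 library leaves its partner without a contrast, so the RA effect then rests on the other lines, and a lone library is assumed to vary like the rest. The ratio of mitochondrial to nuclear reads without mt-Co1 was 0.667 in shCtbp2 and 1.191 in shRxr. Apart from the settings given for smaller sample or gene numbers, the cause of these changes was not tested. No value reversed among those with a call, and of the repeats of main results under an alternative 187 kept their direction and call and 19 did not. The planned edgeR quasi-likelihood test on recovered reads was not run, and limma voom was run on those reads. RA and untreated libraries were paired within each line by the line term of the model, and the labels carry no replicate numbers for another pairing. Depth limits the low genes, since 3 reads stand for 2.25 to 3.01 normalised reads.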

Other observations

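Mitochondrial DNA also gave reads in 24 rows that are no members, 2 ribosomal RNAs and 22 transfer RNAs. The ribosomal RNA rows together took 0.0502% of reads untreated and 0.0278% in RA for shGFP, 0.0438% and 0.041% for shCtbp2, and 0.0506% and 0.0422% for shRxr. Their RA to untreated fold was 0.553 (95% counting interval 0.531 to 0.576) for shGFP, 0.937 (0.9 to 0.977) for shCtbp2 and 0.834 (0.802 to 0.868) for shRxr. In shRxr this lies below 1, whereas the fold of the 12 protein-coding genes of the same genome was 1.108 (1.1 to 1.115). In shGFP both lie below 1, at 0.553 and 0.834 (0.828 to 0.84). The transfer RNA rows held 369 to 482 reads per library in all.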
